A study of Saccharomyces cerevisiae with 38 samples.

Results

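The genes described here encode the 26S proteasome of Saccharomyces cerevisiae and its transcriptional activator. They were taken by gene symbol from the array annotation: 14 genes of the 20S core particle (7 of the alpha rings and 7 of the beta rings), 18 genes of the 19S cap (6 ATPases named RPT and 12 non-ATPase subunits named RPN), and RPN4. RPN4 carries a subunit-like name but encodes the activator, so it was kept apart from the other 32 genes. Together they make 33 of 5548 genes with a name on the array. Each of the 33 had 1 spot, and each had a value on all 38 arrays. SEM1, another cap subunit, was not analysed here.

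The arrays were spotted 2-colour arrays, each comparing polyA RNA of a test strain with RNA of a wild-type (WT) strain in the other dye. Every culture was grown in CSM-HIS medium to an OD600 of about 0.8 and shifted to 37 °C for 45 min, so heat was shared by all groups, WT included. The groups were 6 double mutants (gcn5 ts2, esa1 ts2, elp3 ts2, hat1 ts2, hpa2 ts2 and sas3 ts2, 2 arrays each), the ts2 single mutant (6 arrays), 6 histone acetyltransferase (HAT) single mutants (gcn5, esa1, elp3, hat1, hpa2 and sas3, 2 arrays each) and WT against WT (8 arrays). ts2 is a temperature-sensitive allele of TAF1, a TFIID subunit, and the labels do not give the alleles of the HAT genes. Within each group of 2 the dyes were swapped between array A and array B. The labels do not state that replicate arrays were hybridised with RNA of different cultures. The p-values therefore measure array-to-array spread, some of which may be technical. In RNA of whole cultures, fewer cells in a state and less RNA per cell cannot be told apart.

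The proteasome degrades proteins that carry a ubiquitin chain. Its core is a barrel of stacked rings: the alpha rings gate the entry and the beta rings hold the proteolytic sites. The cap binds ubiquitin chains, removes them, unfolds the substrate with its ring of ATPases and feeds it into the core. In yeast, Rpn4 binds a shared promoter element of most proteasome genes and activates them, and Rpn4 protein is itself a short-lived substrate of the proteasome. Heat shock factor Hsf1, Yap1 and the pleiotropic drug resistance factors Pdr1 and Pdr3 are known activators of RPN4.

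All values below are log2 ratios of test over WT reference from which the median of all genes on the same array was subtracted, and a change is the coefficient of a linear model of all arrays with a dye term, given with its standard error (SE). The direction of the deposited ratio was read from the acetyltransferase genes. GCN5 stood at -3.41 and -2.94 on the gcn5 ts2 arrays and at -2.22 and -2.84 on the gcn5 arrays, against -0.27 to 0.40 on WT arrays. HAT1 stood at -2.70 and -3.85 in hat1 ts2 and at -3.11 and -2.90 in hat1, against -0.74 to 0.67 in WT. SAS3 stood at -1.36 and -1.02 in sas3 ts2 and at -0.37 and -2.82 in sas3, against -0.70 to 0.27 in WT. ELP3 (0.01 and 0.09 in elp3), HPA2 (-1.07 and 1.48 in hpa2) and ESA1 (1.08 and 0.86 in esa1) were not uniformly low in their mutants, so those genes do not check the labels. TAF1 stood between 0.02 and 0.54 on the ts2 arrays, against -0.33 to 0.14 in WT, which does not check the allele.

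Proteasome genes as a group stood above the median gene in every strain with the ts2 allele. The median of the 32 subunit genes was 0.34 and 0.37 on the gcn5 ts2 arrays, 0.43 and 0.28 in esa1 ts2, 0.54 and 0.22 in elp3 ts2, 0.51 and 0.40 in hat1 ts2, 0.47 and 0.19 in hpa2 ts2, and 0.37 and 0.30 in sas3 ts2. It lay between 0.12 and 0.31 on the 6 ts2 arrays, with a median of 0.25. In the HAT single mutants it lay between -0.08 (gcn5 array A) and 0.30 (elp3 array A). On WT arrays it lay between -0.11 and 0.33, with a median of 0.01. WT array A, at 0.33, stood above all 6 ts2 arrays, and the other 7 WT arrays lay at or below 0.06, under all of them. Slide runs were set here from the slide numbers in the array titles: 5 to 9, 29 to 33, 46 to 51 and 66 to 73. The labels do not state that these runs were batches. WT array A belongs to the first run of slide numbers, and the Cy5 arrays of that run (elp3 0.30, hpa2 0.20, elp3 ts2 0.54 and hpa2 ts2 0.47) were the higher of their pairs. The Cy5 array was also the higher one in esa1 ts2, hat1 ts2, sas3 ts2, hat1 and sas3, outside that run, and the lower one in gcn5 ts2, gcn5 and esa1. With slide run as a block, the median change of the subunit genes was 0.21 in elp3 ts2 (0.36 without the block) and 0.18 in hpa2 ts2 (0.32 without it), and 10 and 11 of the 33 genes rose there, against 20 and 17 without it. A dye term per slide run left both medians as they were, with 25 and 20 rises. It could not move these medians, since both arrays of each strain lay in the first run with opposite dyes.

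**Figure D1:**
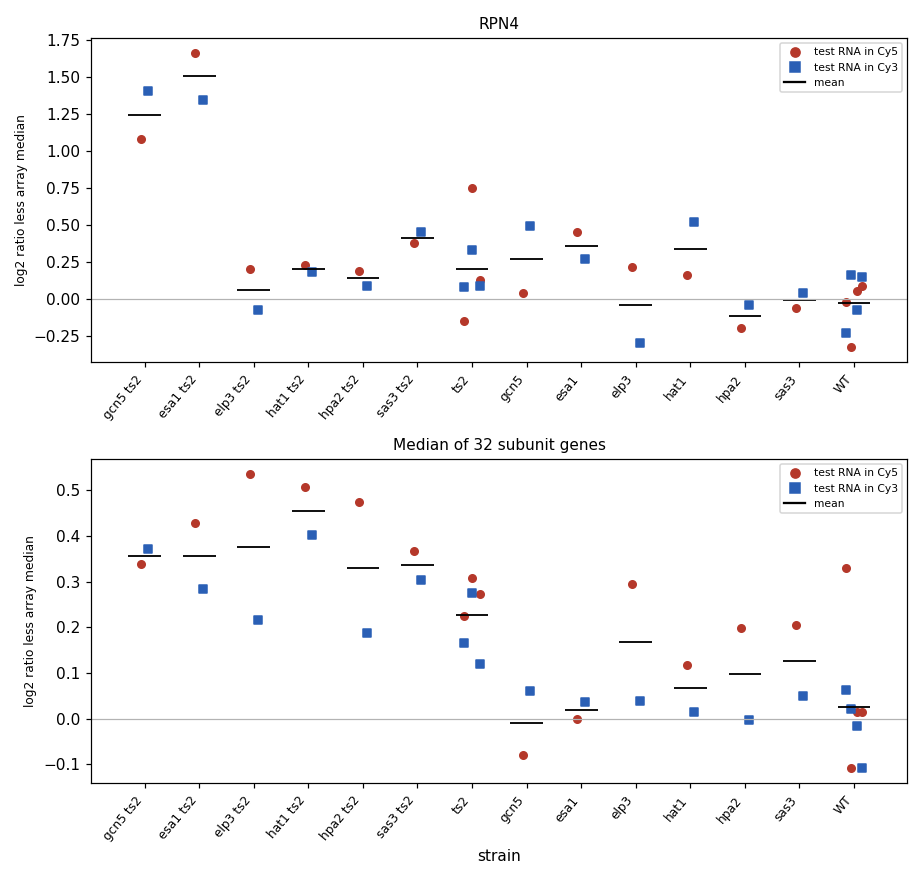
RPN4 (upper panel) and the median of the 32 subunit genes (lower panel) on each of the 38 arrays, as log2 ratio less the array median, by strain, with the dye of the test RNA as colour and shape and the mean as a bar. RPN4 stands apart in gcn5 ts2 and esa1 ts2, while the subunit median lies between 0.12 and 0.54 on the arrays with the ts2 allele and between -0.11 and 0.33 on WT arrays, with WT array A the highest of these. On the deposited scale the median change of the subunit genes in ts2, esa1 ts2 and gcn5 ts2 turns, in ts2 with arrays of either sign.

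Among the strains with the ts2 allele, subtraction of the array median set the direction of the median change of the subunit genes in ts2, esa1 ts2 and gcn5 ts2. Without it, the median change of all genes was -0.35 in ts2, -1.02 in esa1 ts2, -0.59 in gcn5 ts2, -0.20 in sas3 ts2, -0.07 in hpa2 ts2, 0.01 in elp3 ts2 and 0.28 in hat1 ts2. The median change of the 32 subunit genes on that deposited scale was -0.11 in ts2, -0.68 in esa1 ts2 and -0.23 in gcn5 ts2, and it was 0.18, 0.24, 0.37 and 0.72 in sas3 ts2, hpa2 ts2, elp3 ts2 and hat1 ts2. On WT arrays the deposited subunit median ran between -0.82 and 1.65. On ts2 arrays A to F it stood at -0.35, 0.33, 0.38, 0.39, -1.40 and -0.17, so its sign differed between the ts2 arrays. A rise of a proteasome gene therefore means a rise relative to the median gene of the same array in every sentence that follows.

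**Figure D2:**
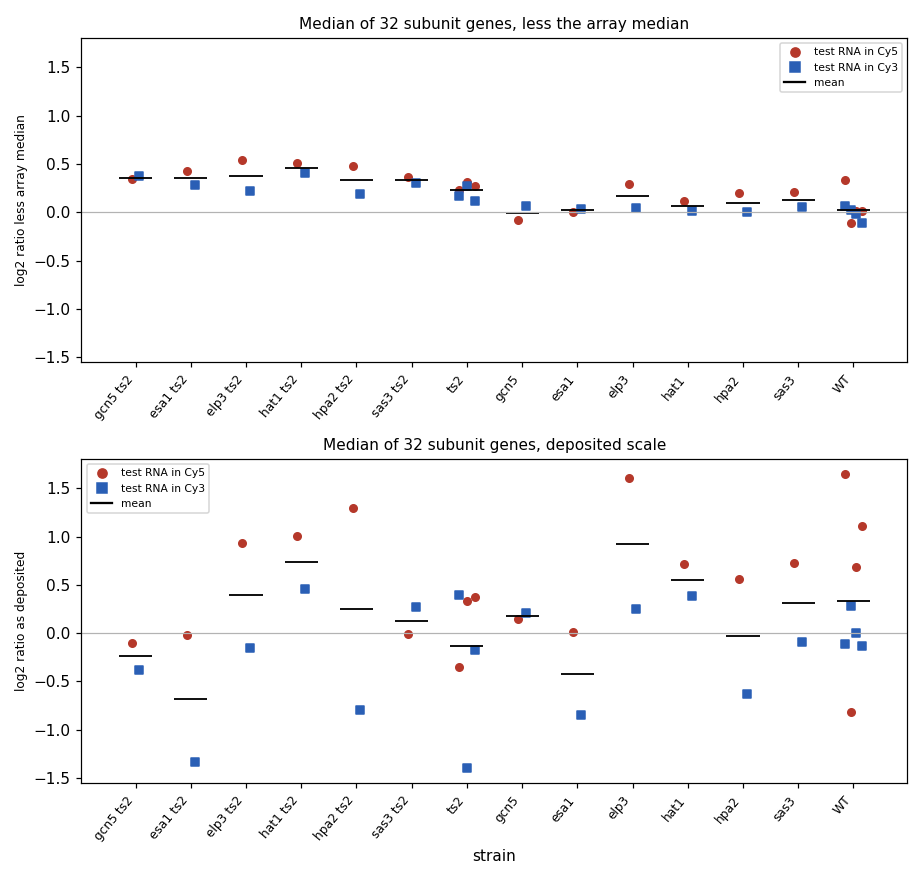
Median of the 32 subunit genes on each array, as log2 ratio less the array median (upper panel) and as log2 of the deposited ratio (lower panel), on the same axis range. WT arrays span -0.11 to 0.33 in the upper panel and -0.82 to 1.65 in the lower, where the ts2 arrays lie between -1.40 (array E) and 0.39. The mean of the ts2 arrays is 0.23 in the upper panel and -0.14 in the lower, where arrays B, C and D lie above 0 and A, E and F below.

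In the ts2 single mutant 4 of 7 core beta genes and 11 of 18 cap genes rose relative to the median gene, a direction that 0 of them kept as a call on the deposited scale. Of the 33 genes, 19 rose and 3 fell at an adjusted p under 0.05, against 32.0% of all genes higher and 33.2% lower (65.2% in either direction). Their median change was 0.24, against 0.01 over all genes. The median of the 32 subunit genes was 0.26, and it was 0.15 with WT fitted as a group of its own and 0.18 with slide run as a block. Among the 14 core genes 7 rose and 3 fell (median 0.15), and among the 18 cap genes 11 rose and 0 fell (median 0.28). On the deposited scale 0 of the 33 were called higher and 2 lower, PUP3 (-0.70) and PRE3 (-0.67), both of the beta rings. Over all 5546 genes tested, 384 were called higher and 1755 lower on that scale. All 6 ts2 arrays lay above all 8 WT arrays for 6 of the 33 genes (PRE6, PRE7, PUP1, RPT3, RPN1 and RPN12), a pattern that 14.6% of genes with enough values showed. The opposite order was seen for 0 of the 33, against 15.4% of genes.

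In the alpha rings, which form the gate of the core, 3 of 7 genes rose in ts2 and 1 fell. PRE6 ran from 0.26 to 0.84 on the ts2 arrays (median 0.66), against -0.16 to 0.21 on the WT arrays (median 0.01). The groups did not overlap, and the change was 0.61 ± 0.06 (SE, adjusted p = 4.3e-10), or 1.53-fold. SCL1 rose by 0.33 ± 0.05 and PRE8 by 0.21 ± 0.06. PRE8 lost its call within each of the 3 slide runs that held ts2 arrays, at 0.17, 0.24 and 0.21. PRE5 fell by 0.19 ± 0.06, with ts2 arrays from -0.44 to 0.00 and WT arrays from -0.02 to 0.37. It lost the call without ts2 array F (-0.15) and within each slide run (-0.20, -0.15 and -0.22). PRE10 (0.09), PUP2 (0.07) and PRE9 (0.04) did not pass the test.

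The beta rings hold the proteolytic subunits, and their 7 genes went in both directions in ts2. PUP1, a proteolytic beta subunit, ran from 0.31 to 0.89 on the ts2 arrays (median 0.56), against -0.12 to 0.26 on the WT arrays (median -0.02). PRE7, a structural beta subunit, ran from 0.40 to 0.85 in ts2 (median 0.55), against -0.23 to 0.39 in WT (median 0.11). Each of the ts2 values of these genes exceeded every WT value, and the changes were 0.59 ± 0.05 and 0.58 ± 0.08. PRE4 (0.28 ± 0.05) and PRE1 (0.27 ± 0.06) rose less, and both lost the call within the fourth slide run (0.19 and 0.17). PRE1 also lost it with WT estimated (0.13) and with slide run as a block (0.12). PUP3 ran from -0.52 to -0.16 on the ts2 arrays (median -0.37), against -0.33 to 0.35 in WT (median -0.09), and fell by 0.34 ± 0.07 (adjusted p = 1.8e-04). PRE3, a proteolytic subunit, fell by 0.31 ± 0.09, with ts2 arrays between -0.56 and 0.02 and WT arrays between -0.45 and 0.59. For both genes the groups overlapped, and WT array A held the highest WT value of each. With slide run as a block both lost the call (PRE3 -0.16, PUP3 -0.19). PRE3 also lost it with WT estimated (-0.27) and within the third slide run (-0.17) and the fourth (-0.27). PRE2, the chymotrypsin-like proteolytic subunit, ran from -0.29 to 0.68 in ts2 and from -0.77 to 0.58 in WT, and its change was 0.09 ± 0.25.

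**Figure D3:**
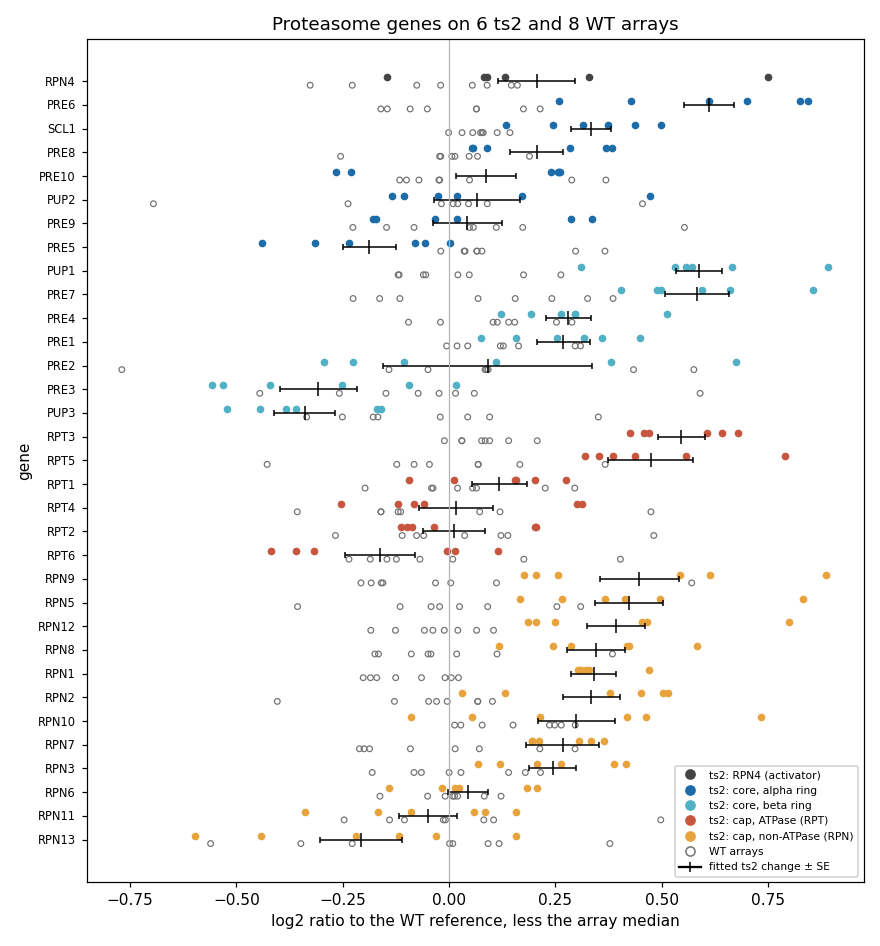
Each of the 33 genes on the 6 ts2 arrays (filled points, coloured by role) and the 8 WT arrays (open points), with the fitted ts2 change and its SE as a black bar, as log2 ratio less the array median. PRE6, PUP1, PRE7, RPT3, RPN1 and RPN12 are the genes with every ts2 point to the right of every WT point, while PUP3, PRE3 and PRE5 are centred to the left of 0. On the deposited scale 0 of the 33 genes were called to the right, where 384 of all 5546 genes were.

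Among the cap ATPases, which unfold substrates, RPT3 and RPT5 rose in ts2. RPT3 ran from 0.42 to 0.68 on the ts2 arrays (median 0.54), against -0.01 to 0.21 on the WT arrays (median 0.08), a change of 0.55 ± 0.05 with no overlap. RPT5 ran from 0.32 to 0.79 in ts2 (median 0.41), against -0.43 to 0.37 in WT (median 0.01), a change of 0.47 ± 0.10 that was not called within the second slide run (0.37). RPT1 (0.12), RPT4 (0.02), RPT2 (0.01) and RPT6 (-0.16) did not pass. RPT6 was called lower without ts2 array E (-0.22), within the second slide run (-0.39), and with the first run left out (-0.16).

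Of the 12 non-ATPase cap genes 9 rose and 0 fell in ts2, where 32.0% of all genes rose and 33.2% fell. RPN9 (0.45 ± 0.09), RPN5 (0.42 ± 0.08), RPN12 (0.39 ± 0.07), RPN8 (0.34 ± 0.07), RPN7 (0.27 ± 0.09) and RPN3 (0.24 ± 0.06), all of the lid, rose. So did the base scaffolds RPN1 (0.34 ± 0.05) and RPN2 (0.33 ± 0.07) and the ubiquitin receptor RPN10 (0.30 ± 0.09). RPN1 ran from 0.30 to 0.47 on the ts2 arrays (median 0.32), against -0.20 to 0.02 in WT (median -0.10). The lid deubiquitinase RPN11 (-0.05), RPN6 (0.04) and the receptor RPN13 (-0.21, adjusted p = 0.060) did not pass. RPN13 was called lower under several alternatives, such as without ts2 array F (-0.31) and without WT array B or WT array H (-0.21 each). RPN2 lost its call within the third slide run (0.08), RPN9 within the second (0.22), RPN10 within the second (0.16) and the fourth (0.13) and RPN12 within the fourth (0.20). RPN7 (0.20) and RPN3 (0.14) lost theirs within the second slide run. RPN10 also lost its call with WT estimated (0.14) and with slide run as a block (0.16), and RPN7 with array letter as a replicate block (0.20).

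The HAT single mutants moved few of these genes. In gcn5, 1 of the 33 genes rose and 2 fell, against 9.15% of all genes higher and 9.35% lower (18.5% in either direction), and the median of the 33 was 0.02. SCL1, an alpha subunit, stood at 0.24 and 0.23 on the gcn5 arrays, against 0.00 to 0.14 in WT, and its change was 0.24 ± 0.08. RPT6 stood at -0.57 and -0.28 in gcn5, against -0.24 to 0.40 in WT (change -0.42 ± 0.14). RPN11 stood at -0.49 and -0.26 in gcn5, against -0.25 to 0.50 in WT (change -0.37 ± 0.12). All 3 calls were lost without gcn5 array A (0.27, -0.18 and -0.20 in the order named), and that of SCL1 also without gcn5 array B (0.20).

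In esa1, PRE7 alone of the 33 genes rose (0.44 and 0.30 on the esa1 arrays, against -0.23 to 0.39 in WT, change 0.37 ± 0.13, adjusted p = 0.034), and 0 fell. Among all genes 16.9% were higher and 11.9% lower in esa1 (28.8% in either direction), and the median of the 33 was 0.04. Its call was lost without either esa1 array (0.34 without A, 0.40 without B) and within the third slide run (0.37). RPN2 lies on chromosome IX, the chromosome whose 203 genes had a median change of -0.41 in esa1, and RPN2 itself had a change of -0.27 that did not pass.

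No proteasome gene passed the limma test in elp3, hat1, hpa2 or sas3, where 0.452%, 0.572%, 0.401% and 0.163% of all genes were called in either direction. At an unadjusted p under 0.05 the counts among the 33 were 7, 3, 4 and 5. Over all genes they were 645 of 5533, 312 of 5423, 723 of 5491 and 327 of 5505. The medians of the 33 were 0.18 in elp3, 0.07 in hat1, 0.13 in hpa2 and 0.13 in sas3. The dye term per slide run, another setting, called 2 genes higher over these 4 strains. PRE2 had the highest single change of the set, 1.62 in hat1, which did not pass: it stood at -0.15 on array A and at 3.38 on array B. Over all genes the 2 arrays of each of these 4 mutants correlated at -0.15 to 0.10, against 0.66 in gcn5 and 0.68 in esa1, and the part of this in the low counts was not tested.

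Each double mutant held 17 to 25 rises among the 33 genes, against 19 in ts2 alone. In hat1 ts2, 25 of the 33 genes rose and 0 fell, against 15% of all genes higher and 16.5% lower (31.5% in either direction). The rises were 21 in esa1 ts2 (27.8% of all genes higher, 28.6% lower and 56.3% in either direction), 20 in elp3 ts2 (19.8%, 19.9% and 39.6%), 19 in sas3 ts2 (23.8%, 24.4% and 48.2%) and 17 in hpa2 ts2 (21.8%, 23.4% and 45.2%), with 0 falls in each. In gcn5 ts2, 19 rose and 2 fell (26.4%, 27.7% and 54.1%). The median changes of the 33 were 0.43 in hat1 ts2, 0.39 in sas3 ts2, 0.38 in esa1 ts2, 0.37 in gcn5 ts2, 0.34 in elp3 ts2 and 0.29 in hpa2 ts2. Every comparison used the same WT reference and shared the WT arrays, and each strain had 2 arrays.

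**Figure D4:**
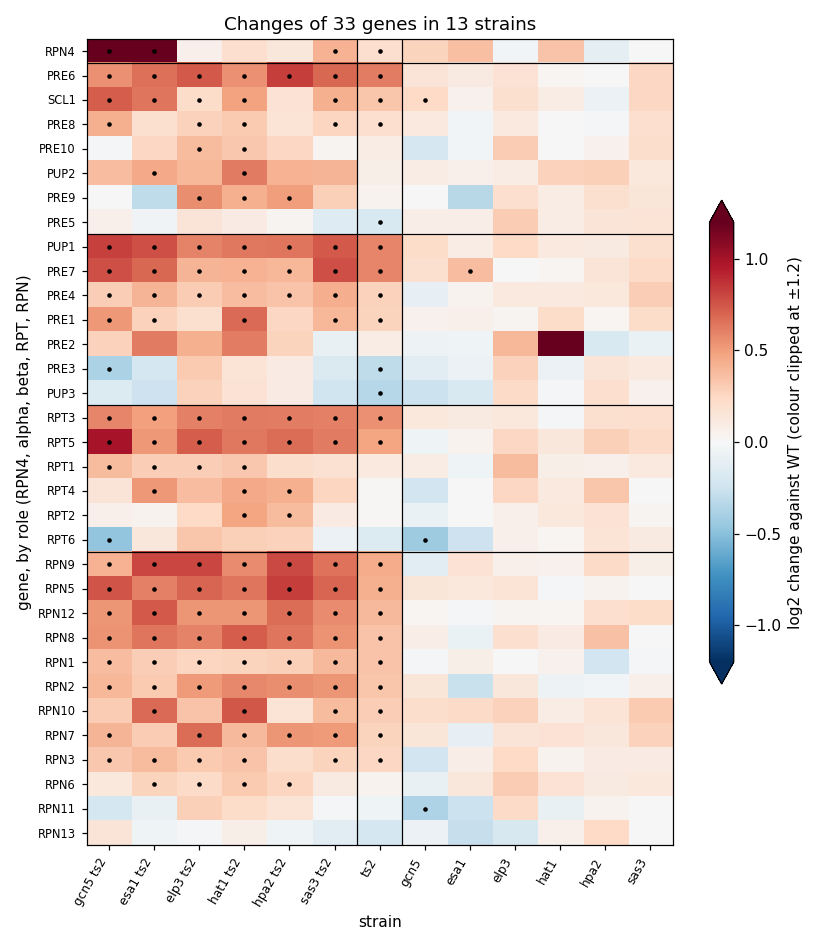
Log2 change against WT of the 33 genes (rows, by role, from RPN4 at the top through alpha, beta, RPT and RPN genes) in the 6 double mutants, in ts2 and in the 6 HAT mutants (columns), with a dot where the adjusted p was under 0.05. Dots fill the double mutant and ts2 columns, with 17 to 25 genes higher in a double mutant, and 4 dots stand in the HAT mutant columns. Without median subtraction 0 of the 33 genes were called higher in any column, where 104 to 210 of all genes were in a double mutant and 384 in ts2.

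Fewer of the 33 genes were called higher in a double mutant when an array of that strain was left out. Such a fit left a single array in the group, with less power for every gene. It therefore cannot tell loss of power from dependence of these genes on the omitted array. The subunit median lay above the median gene on each double mutant array, from 0.19 (hpa2 ts2 array B) to 0.54 (elp3 ts2 array A). On the deposited scale 0 of the 33 were called higher in any double mutant, and 6 were called lower in esa1 ts2 (PRE3, PRE5, PRE9, PUP3, RPN11 and RPN13). Over all 5530 genes tested in esa1 ts2, 210 were called higher and 2830 lower on that scale. Genes called higher ran from 104 of 5484 in hat1 ts2 to 210 of 5540 in gcn5 ts2 and 210 in esa1 ts2.

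The genes that rose most in ts2 also had high values in the double mutants. PRE6 had changes of 0.55, 0.66, 0.74, 0.55, 0.83 and 0.69 in gcn5 ts2, esa1 ts2, elp3 ts2, hat1 ts2, hpa2 ts2 and sas3 ts2, and passed in each. PUP1 had 0.82, 0.77, 0.60, 0.64, 0.64 and 0.73 in the same strains, and RPT3 had 0.58, 0.50, 0.61, 0.62, 0.62 and 0.61, all called. RPN5, a lid subunit, had 0.75, 0.61, 0.70, 0.65, 0.83 and 0.70, again all called. RPT5 reached 0.99 in gcn5 ts2, but its arrays there stood at 0.44 and 1.55, and without array B the change was 0.40 and not called. In esa1 ts2 the highest subunit genes were RPN9, at 0.999 and 0.60 on its arrays, and PUP1, at 0.78 and 0.76. The lowest called there were RPN6 (change 0.26, lost without either array at 0.27 and 0.26), PRE1 (0.50 and 0.05 on its arrays, change 0.28, lost without array A at 0.07) and RPN1 (0.32 and 0.27, change 0.30, lost without array A at 0.22).

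PUP3 and PRE3, the beta subunits that fell in ts2, had changes of either sign in the double mutants. PRE3 had -0.21 in esa1 ts2, -0.17 in sas3 ts2, 0.10 in hpa2 ts2, 0.16 in hat1 ts2 and 0.31 in elp3 ts2, none of them called. It was lower in gcn5 ts2 (-0.48 and -0.27 on its arrays, change -0.38, lost without array A at -0.18), and RPT6 was lower there too (-0.50 and -0.45, change -0.47, lost without array A at -0.36). PUP3 had changes of -0.17 in gcn5 ts2, -0.25 in esa1 ts2, 0.28 in elp3 ts2, 0.17 in hat1 ts2, 0.10 in hpa2 ts2 and -0.24 in sas3 ts2, and passed in none of them. Against ts2 directly, PUP3 was higher in elp3 ts2 by 0.62 ± 0.15 and in hat1 ts2 by 0.51 ± 0.15. PRE3 and PRE9 were higher in elp3 ts2 than in ts2, by 0.62 ± 0.18 and 0.52 ± 0.16. In these contrasts 3 of the 33 genes were higher in elp3 ts2 than in ts2 (5.76% of all genes were higher and 4.31% lower) and 1 in hat1 ts2 (2.22% and 2.79%). No arrays of ts2 came from the first slide run, which held both elp3 ts2 arrays.

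Against its own HAT single mutant, each double mutant held rises and 0 falls among the 33 genes. They were 14 in gcn5 ts2 (12.5% of all genes higher, 13.3% lower), 10 in esa1 ts2 (15.9% and 17.1%), 10 in hat1 ts2 (8.14% and 8.42%), 9 in sas3 ts2 (17.6% and 17.7%), 7 in hpa2 ts2 (16.9% and 19.5%) and 6 in elp3 ts2 (12.6% and 13.2%). PRE6, PUP1 and RPT3 were among the rises in all 6 contrasts. By slide number, the gcn5, esa1, hat1 and sas3 arrays shared slides with their double mutants, and the elp3 and hpa2 arrays did not. The main model held no term for slide, and with slide as a random block the correlation within slides was 0.227.

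The test of each double mutant against ts2 called 3 of 33 genes higher in esa1 ts2 (14.5% of all genes higher and 9.57% lower) and 2 in gcn5 ts2 (11.9% and 11.4%), with 0 lower in both. They were RPN4, SCL1 and RPT4 in esa1 ts2 and RPN4 and SCL1 in gcn5 ts2. SCL1 stood at 0.81 and 0.64 in gcn5 ts2 and at 0.73 and 0.56 in esa1 ts2, against 0.13 to 0.50 on ts2 arrays. Its differences from ts2 were 0.39 ± 0.09 and 0.31 ± 0.09. The SCL1 call in esa1 ts2 was lost without either of its arrays (0.26 and 0.36) and within the third slide run (0.21), and that in gcn5 ts2 without gcn5 ts2 array A (0.34). RPT4, at 0.50 ± 0.17 above ts2 in esa1 ts2, was lost without either esa1 ts2 array and without ts2 array A or F (0.45 to 0.55). In hpa2 ts2 and sas3 ts2 limma called 0 of the 33 against ts2, where 7.01% and 0.181% of all genes were called in either direction. At an unadjusted p under 0.05 there were 10 and 0 of the 33, against 1213 of 5523 and 383 of 5528 over all genes.

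RPN4, the activator of the other genes, had the highest change of the 33 in gcn5 ts2 and in esa1 ts2. It stood at 1.09 and 1.41 on the gcn5 ts2 arrays and at 1.67 and 1.35 on the esa1 ts2 arrays, against -0.15 to 0.75 on the ts2 arrays (median 0.11) and -0.33 to 0.16 on the WT arrays (median 0.02). These 4 arrays lay above every other array of the study. The changes against WT were 1.25 ± 0.16 (adjusted p = 1.3e-07) and 1.51 ± 0.16 (adjusted p = 3.7e-09), or 2.37-fold and 2.84-fold. Changes of this size were not rare in these strains. RPN4 ranked 348 of 5540 genes from the top in gcn5 ts2 and 405 of 5530 in esa1 ts2. Both changes lay under the 95th percentile of all genes, at 1.48 and 1.82.

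In the other double mutants RPN4 stood at 0.38 and 0.45 (sas3 ts2), 0.23 and 0.18 (hat1 ts2), 0.19 and 0.09 (hpa2 ts2) and 0.20 and -0.08 (elp3 ts2). In the HAT single mutants it stood at 0.04 and 0.50 (gcn5), 0.45 and 0.27 (esa1), 0.16 and 0.52 (hat1), -0.06 and 0.04 (sas3), 0.22 and -0.30 (elp3) and -0.19 and -0.04 (hpa2). Of these, RPN4 passed in sas3 ts2 alone (0.42 ± 0.16, adjusted p = 0.029), and that call was lost without either of its arrays. Ordered by change, esa1 ts2 and gcn5 ts2 came first and overlapped in range, and sas3 ts2, esa1, hat1, gcn5, hat1 ts2 and ts2 followed, at 0.42, 0.36, 0.34, 0.27, 0.21 and 0.21, without a gap larger than the spread between their arrays. The lowest were hpa2 ts2, elp3 ts2, sas3, elp3 and hpa2, at 0.14, 0.06, -0.01, -0.04 and -0.12.

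In ts2, RPN4 rose by 0.21 ± 0.09 (adjusted p = 0.046), a call that rested on few arrays. The ts2 arrays stood at -0.15, 0.75, 0.13, 0.08, 0.33 and 0.09. Without array B, the one at 0.75, the change was 0.09. The call was also lost without ts2 array C (0.22) or E (0.18) and without WT array C, D or G (0.21 each), and the change was -0.03 within the second slide run and -0.16 on the deposited scale.

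RPN4 was higher in esa1 ts2 than in ts2 by 1.30 ± 0.18 and than in esa1 by 1.15 ± 0.22. It was higher in gcn5 ts2 than in ts2 by 1.04 ± 0.18 and than in gcn5 by 0.98 ± 0.22, the last lost without gcn5 array A (0.73). The interaction (double mutant less ts2 less HAT mutant) was 0.94 ± 0.24 for esa1 (adjusted p = 0.017), the 1 interaction call among the 33 genes, against 4.92% of all genes called in either direction. In the elp3, hat1, hpa2 and sas3 interactions limma called 0 of the 33, with 0.725%, 0.409%, 1.81% and 0.0% of all genes called. At an unadjusted p under 0.05 there were 1, 2, 0 and 0 of the 33. Over all genes there were 757 of 5515, 662 of 5383, 808 of 5470 and 170 of 5493. The esa1 interaction of RPN4 was not called without esa1 ts2 array A (0.77), esa1 array A (1.04) or esa1 array B (0.85). Nor was it called within the third slide run (0.61, adjusted p = 0.055). The gcn5 interaction of 0.77 ± 0.24 did not pass (adjusted p = 0.13; 0.993% of all genes called). It did pass within the second slide run (1.01), without ts2 array B (0.88) and with a dye term per slide run (0.77). On the deposited scale RPN4 stood at 0.65 and 0.65 in gcn5 ts2 and at 1.22 and -0.27 in esa1 ts2, against -1.04 to 1.30 in WT, and its changes of 0.65 and 0.48 were not called.

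The 14 core genes and the 18 cap genes did not separate. The core median less the cap median ran from -0.18 to 0.09 on the ts2 arrays (mean -0.03, SD 0.09, n = 6), against -0.09 to 0.12 on the WT arrays (mean 0.03, SD 0.08, n = 8). It was -0.06 and -0.24 in hpa2 ts2, -0.11 and -0.07 in hpa2, 0.13 and 0.07 in sas3, and 0.07 and 0.11 in gcn5. The remaining groups of 2 lay between -0.14 and 0.10. Values below the lowest WT array occurred on 1 array each of ts2, elp3 ts2, hpa2 ts2 and hpa2. A value above the highest WT array occurred on sas3 array B (0.1325, against 0.1237 on WT array G).

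**Figure D5:**
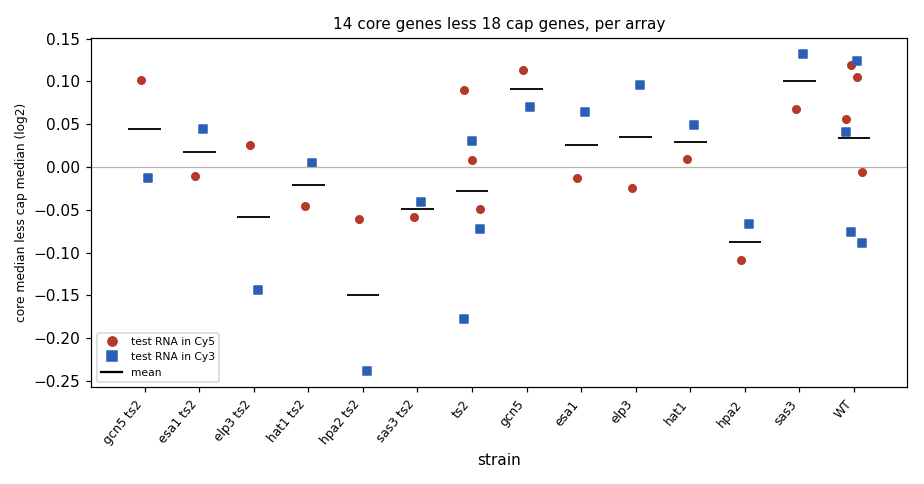
Median of the 14 core genes less the median of the 18 cap genes on each array, in log2 units, by strain, with the dye of the test RNA as colour and shape and the mean as a bar. The ts2 arrays (-0.18 to 0.09) and the WT arrays (-0.09 to 0.12) overlap, and the lowest value is -0.24 on an hpa2 ts2 array; the difference is the same on the deposited scale, where the array median cancels.

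Proteasome genes varied less among themselves than genes at large. The interquartile range over the 32 subunit genes was 0.21 to 0.53 on arrays with the ts2 allele, where that over all genes was 0.56 to 1.004. On HAT mutant arrays it was 0.14 to 0.32, against 0.27 to 0.57 over all genes, and on WT arrays 0.07 to 0.24, against 0.21 to 0.47. The number of subunit genes above the array median was 18 to 28 of 32 on the ts2 arrays, 23 to 32 on the double mutant arrays, 13 to 31 on the HAT mutant arrays and 6 to 29 on the WT arrays.

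The factors that assemble the proteasome included the largest rise near the set. TMA17, a chaperone of the cap base induced by stress, had changes of 1.76 in ts2, 2.44 in esa1 ts2, 1.15 in gcn5 ts2, 1.41 in elp3 ts2, 1.16 in hat1 ts2, 1.75 in hpa2 ts2 and 2.25 in sas3 ts2, all called. Its ts2 arrays ran from 1.34 to 1.99, against -0.13 to 0.21 on the WT arrays. In the esa1 single mutant it rose by 1.04. On the deposited scale it was called in ts2 (1.39) and esa1 ts2 (1.41), and not in gcn5 ts2 (0.55) or esa1 (0.605). Of the 10 assembly genes, 3 rose in ts2 (TMA17, UMP1 by 0.20 and NAS6 by 0.19, UMP1 and NAS6 being at -0.17 and -0.18 on the deposited scale) and POC4, a chaperone of the core, fell by 0.32, where 32.0% of all genes rose and 33.2% fell. UMP1 lost its call with WT estimated (0.11), within the third slide run (0.05) and with slide run as a block (0.12), and NAS6 without ts2 array A (0.14). In gcn5 ts2, UMP1 (0.76), the maturation factor of the core, and NAS6 (0.63) rose, and RPN14 (-0.48, lost without array A at -0.34) and HSM3 (-0.39) fell. NAS6 also rose in gcn5 (0.62), and NAS2 (-0.50) and NAS6 (-0.33), chaperones of the base, fell in esa1, calls lost without esa1 array B for NAS2 (-0.38) and without array A for NAS6 (-0.20). NAS2 lies on chromosome IX, whose 203 genes had a median change of -0.41 in esa1. HSM3 rose in esa1 ts2 (0.42, and -0.61 on the deposited scale). The median of the 10 genes was 0.03 in ts2, against 0.01 over all genes.

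Of 5 factors that bind the finished proteasome, 1 rose and 3 fell in ts2, where 65.2% of all genes were called in either direction. The deubiquitinase UBP6 had 0.44 to 1.02 on the ts2 arrays, against -0.14 to 0.16 in WT (change 0.58). The ubiquitin ligase HUL5 had -1.89 to -0.71 on the ts2 arrays, against -0.41 to 0.21 in WT (change -1.11). CIC1 (-0.64) fell as well. The core activator BLM10 (-0.18) was called lower, but not without ts2 array C (-0.12) or F (-0.15), nor with WT estimated (-0.08), nor within the second slide run (-0.04) or the third (-0.12). UBP6 rose in gcn5 ts2 (0.76) and esa1 ts2 (0.72, and -0.32 on the deposited scale), and HUL5 fell in gcn5 ts2 (-1.48), esa1 ts2 (-0.87) and gcn5 (-0.59, lost without either gcn5 array at -0.43 and -0.75). CIC1 fell in esa1 ts2 by 0.91.

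Of 30 genes of the ubiquitin system, 15 rose and 6 fell in ts2, with a median of 0.16, where 32.0% of all genes rose and 33.2% fell. The polyubiquitin gene UBI4 (0.83), the shuttle DDI1 (0.83) and the segregase CDC48 (0.82) had the largest rises. The conjugating enzyme UBC1 (-0.87), CUE1 (-0.56), which anchors a conjugating enzyme at the endoplasmic reticulum, and the ligase SSM4 (-0.47) had the largest falls. UBI4 overlapped WT, with 0.54 to 1.15 on the ts2 arrays and -0.47 to 0.80 on the WT arrays. In esa1 ts2, 12 of the 30 rose and 5 fell (27.8% and 28.6% of all genes), led by UBI4 (1.70), CDC34 (1.24) and CDC48 (1.04), and by UBC1 (-1.58), CUE1 (-1.04) and SSM4 (-0.68). SSM4 lies on chromosome IX, whose 204 genes had a median change of -0.18 in esa1 ts2. In gcn5 ts2, 12 rose and 4 fell (26.4% and 27.7% of all genes), led by the chain-elongating factor UFD2 (1.31), UBI4 (1.30) and the ligase UBR1 (0.89), and by UBC4 (-0.74), SAN1 (-0.60) and CUE1 (-0.55, lost without array A at -0.43).

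Among the HAT single mutants, limma called ubiquitin genes in esa1 and gcn5 and 0 of the 30 in elp3, hat1, hpa2 and sas3. In those 4 strains 3, 1, 5 and 0 had an unadjusted p under 0.05. Over all genes 645 of 5533, 312 of 5423, 723 of 5491 and 327 of 5505 did. In esa1, CDC34 (0.91), UBC4 (0.80) and UBI4 (0.76) rose and CUE1 (-0.68), SSM4 (-0.67) and UBC1 (-0.61) fell, among 5 rises and 3 falls of 30 (16.9% and 11.9% of all genes). The 203 genes of chromosome IX, which holds SSM4, had a median change of -0.41 in esa1. The calls were lost without esa1 array A for CUE1 (-0.57) and UBC1 (-0.58) and without esa1 array B for UBI4 (0.64). In gcn5, UFD2 (0.83), UBR1 (0.48) and UBC5 (0.43) rose, among 4 rises and 0 falls of 30 (9.15% and 9.35% of all genes). UBR1 and UBC5 lost their calls without either gcn5 array (0.41 to 0.56), and UFD2 without gcn5 array B (0.63). UFD2 stood at 0.65 and 1.01 on the gcn5 arrays, against -0.26 to 0.07 in WT.

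Of the 4 known activators of RPN4, HSF1 and YAP1 rose in ts2, by 0.65 ± 0.08 and 0.49 ± 0.06, where 32.0% of all genes rose and 33.2% fell. Their part in the values of RPN4 was not tested. YAP1, a regulator of the oxidative stress response, had changes of 1.13 in gcn5 ts2, 1.01 in esa1 ts2, 0.54 in esa1 and 0.34 in gcn5, all called. The call was lost in gcn5 without array A (0.49) or B (0.20) and in esa1 without array B (0.45). HSF1 had 0.72 in gcn5 ts2 and 0.79 in esa1 ts2. PDR1 rose by 0.43 in gcn5 ts2 (0.37 and not called without array A) and had -0.04 in esa1 ts2. For YAP1, HSF1 and PDR1 the deposited scale gave other signs in esa1 ts2 (-0.02 and -0.25) or gcn5 ts2 (-0.16 for PDR1).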

How the data were processed

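Each array value was deposited as a linear ratio of the dye channels, on an "other" scale that holds some values at or below 0, which were set to missing. Per the series' design text, the authors mode-normalized the dye-swap data with R and used Bacillus subtilis RNA, added per OD600 unit, for correction; whether the deposited ratios come before or after these steps is not stated, nor is the direction, which was read from GCN5 and HAT1. The labels state the dyes of the mutant arrays; 1 pair of same-dye arrays of different strains (hpa2 A with ts2 A) correlated at -0.309, and the direction was kept. The number of arrays limits the precision.

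Of 7056 spots, 5579 had 1 gene name and 1477 had none. Spots of a gene were averaged on the log2 scale and the array median was subtracted. A linear model per gene (limma 3.58.1, R 4.3.3) covered all 38 arrays, with 13 mutant coefficients, WT fixed at 0 and a dye term. Genes needed values on 4 of 6 ts2 arrays, 6 of 8 WT arrays and both arrays of other groups. P-values were adjusted by Benjamini-Hochberg over all genes in each comparison, at 0.05. The model was tested on simulated data. Whether array letters pair the arrays could not be settled. Of 186 same-letter pairs, 89 had deviations correlating above 0.1, with a median of 0.092, against -0.047 for pairs of other letters. In the groups with arrays A and B alone the letter also gave the dye, so pairing and dye cannot be told apart there.

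The array A labelled hpa2 ts2 carries elp3's strain number and was kept by its title. The dyes of WT arrays were taken from slide mates. Members, lists and tests were chosen with earlier results of these data known. The values of all 33 genes could be named; from the other lists, up to 3 called genes in each direction. Alternatives were omission of the median subtraction or of the dye term, separate dye terms by slide run, WT as an estimated group, no filter, blocks for letter, slide and slide run, single slide runs and leaving out each array.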

Additional observations from a re-analysis of the deposited data

Results flagged for a closer look

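Values on 3 arrays, 5 in all, stood far from the others of their group among 70 group and gene combinations checked, where chance gives about 5%. RPN1 was 0.47 on ts2 array E, against 0.30 to 0.33 on the other 5 ts2 arrays. RPN2 was -0.40 on WT array G, against -0.13 to 0.10 on the other WT arrays. WT array A held the other 3: RPN9 at 0.57 (others -0.21 to 0.11), RPN11 at 0.50 (others -0.25 to 0.10) and the median of the 32 subunit genes at 0.33 (others -0.11 to 0.06).

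The effect of the ts2 allele on RPN4 differed with and without the esa1 mutation by 0.94 on the log2 scale, by the interaction term of the model, where 4.92% of all genes were called. The term was not called within the third slide run (0.61), with array letter as a replicate block (0.87) or on the deposited scale (0.71).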

How the results depend on the processing

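The number of the 33 genes called in either direction was 22 in ts2, 3 in gcn5, 1 in esa1, 21 in gcn5 ts2, 21 in esa1 ts2, 81 over the 4 other double mutants and 0 over the 4 other HAT mutants. It was 2 in gcn5 ts2 less ts2, 3 in esa1 ts2 less ts2, 0 in the gcn5 interaction and 1 in the esa1 interaction. Without subtraction of the array median these became 2 in ts2, 0 in gcn5, 0 in esa1, 0 in gcn5 ts2, 6 in esa1 ts2, 0 in the other double mutants, 0 in both contrasts with ts2 and 0 in the esa1 interaction. Over all genes 2139 of 5546 were then called in ts2 and 3040 of 5530 in esa1 ts2. With array letter as a replicate block, gcn5 and esa1 had 0, gcn5 ts2 13, the other double mutants 38, esa1 ts2 less ts2 1 and the esa1 interaction 0. With slide run as a block, gcn5 and esa1 had 0, esa1 ts2 13 and esa1 ts2 less ts2 1. With a dye term per slide run (added after the data were seen), esa1 had 3, the other HAT mutants 2, esa1 ts2 less ts2 5 and the gcn5 interaction 1. Without slide run 1 (also added), esa1 had 2 and esa1 ts2 less ts2 5. With WT as an estimated group gcn5 had 1 and esa1 0, and with no dye term gcn5 had 1. The gcn5 interaction had 1 with slide as a random block and 1 within slide run 2. Within slide run 3, esa1 had 3, esa1 ts2 less ts2 1 and the esa1 interaction 0, and within slide run 4 ts2 had 14. Leaving out single arrays gave 21 to 23 in ts2, 0 to 3 in gcn5, 0 to 1 in esa1, 12 to 22 in gcn5 ts2, 13 to 21 in esa1 ts2, 66 to 85 in the other double mutants, 0 to 1 in the other HAT mutants, 2 to 3 in gcn5 ts2 less ts2, 1 to 5 in esa1 ts2 less ts2 and 0 to 1 in each interaction. Fits that left 1 array in a group had less power for every gene, and the share of all genes called in them is not given. Core less cap moved by less than its SD throughout, but these alternatives could not have moved it further. The array median cancels in it, and the 33 genes had values on all arrays. Leaving out 1 array always moves a mean by less than the SD.

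Signs turned on the deposited scale. In ts2 they did for PRE8 (-0.16), RPN3 (-0.12), RPN4 (-0.16), UMP1 (-0.17), NAS6 (-0.18), PRE1 (-0.10), PRE4 (-0.084), SCL1 (-0.031), RPN1 (-0.024), RPN2 (-0.030), RPN7 (-0.10), RPN8 (-0.020) and RPN10 (-0.065). In esa1 PRE7 was -0.068, and in gcn5 ts2 PRE4 was -0.30 and PDR1 -0.16. In esa1 ts2 they did for PUP1 (-0.26), RPN9 (-0.23), RPN6 (-0.77), PRE1 (-0.76), RPN1 (-0.73), HSM3 (-0.61), UBP6 (-0.32), YAP1 (-0.024) and HSF1 (-0.25), and in esa1 ts2 less ts2 for RPT4 (-0.16) and SCL1 (-0.36). RPN4 in ts2 was -0.032 within slide run 2. The cause was not tested. Whether array letters pair the arrays could not be settled, and no value within a single slide run could be had for the other mutants summed, since hpa2 spans 2 runs.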
